A study of Mus musculus with 12 samples.

Results

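The genes described are 10 mouse genes that put peptides on major histocompatibility complex (MHC) class I molecules. They are the heavy chain genes H2-Q2, H2-K1 and H2-D1, the light chain gene B2m, the transporter genes Tap1 and Tap2, the loading factor gene Tapbp, and the immunoproteasome genes Psmb8, Psmb9 and Psmb10. They were chosen by symbol, with the differences between the cell lines in earlier results of these arrays known, and every probe set annotated to any of them is shown, 30 of the 45101 on the array. Of these 27 name a single gene and 3 name several. Another mark of doubt is the x suffix, which Affymetrix gives to probe sets with probes that also match other transcripts, and 14 of the 30 carry it. Among the 17 heavy chain probe sets 14 carry the suffix or name several genes.

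The arrays come from 9A1 and 14B3, 2 bipotential mouse embryonic liver (BMEL) lines, which are immortal epithelial cells that can form hepatocyte-like or bile duct-like cells. Both were isolated independently from livers at day 14 post coitum, from a cross of CBA/J and C57Bl/6J, and the labels name no engineered allele. The groups were 9A1 in basal culture, as aggregates for 1 day and as aggregates for 5 days, and 14B3 in the same 3 cultures, with 2 biological replicates each and 12 arrays in all. Each line is a single isolate, so a difference between lines cannot be told apart from a difference between isolates. Levels are on the log2 scale, as deposited, so a difference of 1 is a 2-fold change. In these bulk samples fewer cells of a type and less RNA per cell cannot be told apart.

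A class I molecule is a polymorphic heavy chain bound to beta-2-microglobulin and a short peptide. The peptides are cut by the proteasome, whose catalytic subunits can be replaced by the immunoproteasome subunits encoded by Psmb8, Psmb9 and Psmb10. The TAP transporter then carries them into the endoplasmic reticulum, where tapasin, the product of Tapbp, holds an empty heavy chain beside TAP until a peptide is bound. Interferon gamma is the classical inducer of the whole set, and hepatocytes of resting liver are known for carrying little class I on their surface. The heavy chain genes lie in the H2 region of chromosome 17 and differ between inbred strains, including those of the cross used here. In GRCm38, H2-Q2 lies at chr17:35342307-35346764, H2-D1 at chr17:35263094-35267497 and H2-K1 at chr17:33996012-34000619. Tapbp, Psmb9, Tap1, Psmb8 and Tap2 lie in the same region, while B2m is on chromosome 2 at chr2:122147687-122153082 and Psmb10 on chromosome 8 at chr8:105935728-105938392.

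Promoter windows from RefSeq (GRCm38.p6), covering 250 bases before and 50 bases from a transcript start, were found for 9 of the 10 genes, and Tap2 is named only. Those of the 3 heavy chains are shown because the line differences turn on them, and that of B2m because it is their shared light chain and rose in both lines. H2-K1 has 2 windows, from transcripts that start inside the annotated gene, and the first is shown. Capitals mark letters of the MHC kappa B site (GGGATTCCC, or GGGAATCCC on the other strand) in H2-K1 and H2-D1, and the interferon-stimulated response element core (GAAANNGAA, or TTCNNTTTC on the other strand) in B2m.
H2-Q2, chr17:35342057-35342356, plus strand: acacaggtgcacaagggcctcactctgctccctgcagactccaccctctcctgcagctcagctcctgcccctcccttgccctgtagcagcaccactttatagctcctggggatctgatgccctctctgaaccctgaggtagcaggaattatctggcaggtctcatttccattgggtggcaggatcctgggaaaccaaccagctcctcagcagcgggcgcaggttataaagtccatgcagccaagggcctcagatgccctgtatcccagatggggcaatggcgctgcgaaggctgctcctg
H2-K1, chr17:34000298-34000597, minus strand: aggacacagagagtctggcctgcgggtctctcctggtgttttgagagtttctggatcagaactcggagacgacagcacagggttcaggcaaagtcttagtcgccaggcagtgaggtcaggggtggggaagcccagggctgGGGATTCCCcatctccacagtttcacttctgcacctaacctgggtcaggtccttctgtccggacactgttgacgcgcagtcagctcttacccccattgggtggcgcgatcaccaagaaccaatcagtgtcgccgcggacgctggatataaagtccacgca
H2-D1, chr17:35262844-35263143, plus strand: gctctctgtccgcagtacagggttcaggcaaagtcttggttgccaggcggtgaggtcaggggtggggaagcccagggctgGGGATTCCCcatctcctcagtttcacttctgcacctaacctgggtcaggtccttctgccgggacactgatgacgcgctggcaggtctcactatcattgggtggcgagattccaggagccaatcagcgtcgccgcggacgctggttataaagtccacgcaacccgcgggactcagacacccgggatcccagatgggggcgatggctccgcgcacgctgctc
B2m, chr2:122147437-122147736, plus strand: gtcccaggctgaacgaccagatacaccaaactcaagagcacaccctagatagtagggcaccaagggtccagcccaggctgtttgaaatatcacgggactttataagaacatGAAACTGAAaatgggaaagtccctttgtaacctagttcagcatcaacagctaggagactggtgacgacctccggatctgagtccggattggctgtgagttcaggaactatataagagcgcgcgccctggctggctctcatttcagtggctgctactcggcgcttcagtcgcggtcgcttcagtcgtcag

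The kappa B letters were in 0.353% of all 32851 promoter windows, and in the windows of 2 of the 9 genes, H2-K1 and H2-D1. They stood at bases -110 to -102 in the H2-K1 window above and at -170 to -162 in H2-D1. The response element core, as the letters GAAANNGAA, was in 8.56% of all windows and, among the members, in B2m at bases -139 to -131. Other forms of the element were not searched for, so a window without these letters is not shown to lack one. The H2-K1 and H2-D1 windows both hold tttcacttc, which the searched letters do not cover. The core of the X2 box (TGACGC, or GCGTCA), left in lower case above, was in 7.4% of all windows and in those of H2-K1 and H2-D1. None of the 3 motifs was in the H2-Q2 window, which says only that these letters are not in it. The windows of Tap1 and Psmb9 overlap by 275 bases on opposite strands. None of the motifs overlapped another. A match is a description of letters and not a measured binding site.

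Before the levels are compared, 2 arrays have to be set apart, because they went against their line label. Genes of the Y chromosome were high on 4 of the 6 arrays labelled 9A1 and low on all 6 arrays of 14B3. Kdm5d, a Y-linked histone demethylase, had levels of 9.04 to 9.53 on those 4 arrays, 3.80 on the array labelled 9A1 basal replicate 1, 4.24 on the array labelled 9A1 day 1 replicate 2 and 3.68 to 3.99 on 14B3. Xist, the RNA that coats the inactive X chromosome, ran the other way, with 10.93 and 8.83 on those 2 arrays, 3.76 to 4.14 on the other 9A1 arrays and 10.03 to 11.79 on 14B3. The interferon-inducible gene Ifi202b was at 4.65 and 4.86 on the same 2 arrays, 11.30 to 11.93 on the other 9A1 arrays and 4.68 to 4.99 on 14B3. On these genes, which were looked at after the values were seen, both arrays lie with or near 14B3.

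Across all probe sets the array labelled 9A1 basal replicate 1 correlated best with a 14B3 day 5 array (r = 0.976, against 0.952 with its replicate), and albumin stood at 13.1 on it against 5.57 to 6.86 on the other basal arrays. The array labelled 9A1 day 1 replicate 2 correlated best with a 14B3 day 1 array (r = 0.975, against 0.949 with its replicate). The first stands apart by culture as well as by line. The second had the highest median (6.24) and the narrowest spread of levels (SD 2.13, against 2.25 to 2.33 on the other arrays). Line differences and member changes in 9A1 are given with all 12 arrays and, for the probe sets the text turns on, with the 10 others, where 9A1 basal and 9A1 day 1 have 1 array each that is assumed to vary like the other groups. The 14B3 differences are the same in both fits and their errors are not. All arrays had medians between 6.09 and 6.24.

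**Figure D1:**
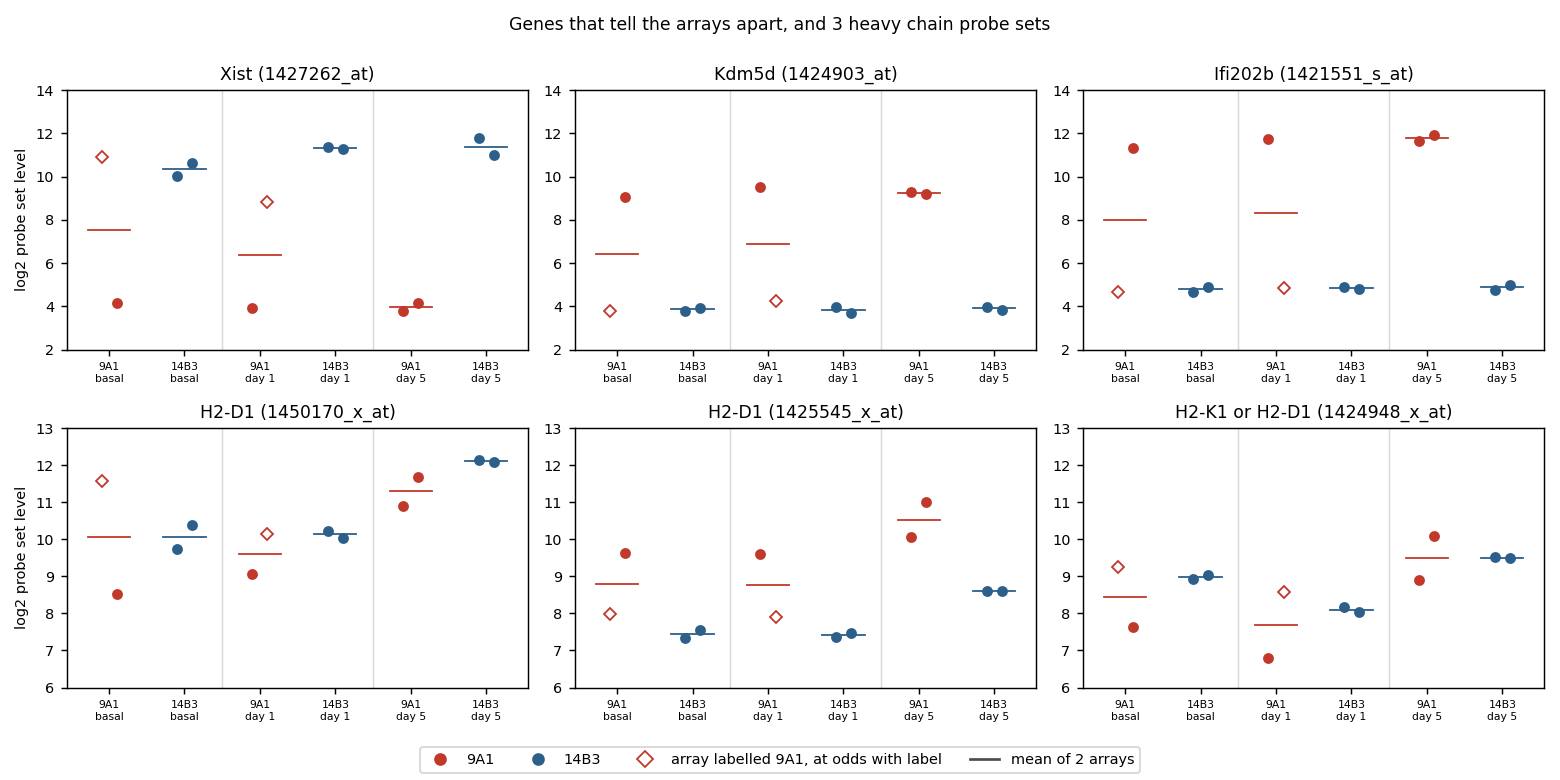
Log2 levels of 3 genes that tell the lines apart (upper row) and of 3 heavy chain probe sets (lower row) on each of the 12 arrays, with bars at the mean of 2 arrays and open diamonds for the arrays at odds with their label. The diamonds sit at or near the levels of 14B3 for Kdm5d and Ifi202b. In the lower row H2-D1 1425545_x_at places them closer to 14B3 than their replicates are. The lower row was picked for wide gaps between the basal diamond and its replicate. That gap is therefore given by the choice and is no separate sign of the line.

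The floor for testing was a log2 level of 5 on at least 2 arrays, and 26 of the 30 probe sets passed it. The other 4 stayed near the bottom of the scale: H2-D1 1451934_at between 4.12 and 4.75, Tap1 1420274_at between 3.95 and 4.44, Tap1 1449803_x_at between 4.14 and 5.20, and Psmb8 1444619_x_at between 3.76 and 4.09. The second Tap1 probe set that passed, 1448177_at, held between 5.05 and 5.37 on all 12 arrays, just above the floor. One probe set, H2-Q2 1418734_at, passed on 2 arrays alone, those of 9A1 at day 5.

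Between the lines, the heavy chains differed most, and probe sets of the same gene pointed opposite ways. The line differences below are 9A1 minus 14B3 and carry no test, since the genes were chosen with them known. H2-Q2, a class I heavy chain of the Q region, was near the bottom of the scale everywhere but in 9A1 at day 5. Its single-gene probe set 1418734_at had 8.05 and 8.59 on the 9A1 day 5 arrays, against 3.58 and 3.64 on the 14B3 day 5 arrays, a difference of 4.71 on the log2 scale, whose size rests on 14B3 values below the floor. On the other 8 arrays it lay between 3.29 and 3.60. The 2 arrays of 9A1 at day 5 thus stand wholly apart from the other 10, which overlap near the bottom of the scale. The other probe set annotated to H2-Q2, 1422348_at, which also names H2-D1 and Gm38417, had 6.07 and 6.27 in 9A1 against 6.08 and 5.96 in 14B3 at day 5, and those values overlap.

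H2-K1 encodes the K heavy chain, one of the main peptide-presenting chains of mouse cells. Its probe set 1425336_x_at had 11.27 and 12.45 on the 9A1 day 5 arrays, against 9.48 and 9.17 on the 14B3 day 5 arrays, a difference of 2.53 or 5.79-fold. In basal culture it had 9.05 and 9.85 on the arrays labelled 9A1, against 8.64 and 8.79 on 14B3, and at day 1 it had 9.29 and 9.59 against 8.08 and 7.88. The lines did not overlap in any culture, with or without the 2 arrays. Probe set 1451931_x_at differed by 1.68 at day 5, with 8.65 and 9.81 in 9A1 against 7.49 and 7.60 in 14B3. Another, 1427746_x_at, had 8.84 and 10.02 in 9A1 against 9.31 and 9.18 in 14B3 at day 5, so the lines overlapped there. Without the 2 arrays it was lower in 9A1 by a difference of -0.78 in basal culture and -0.33 at day 1. The last, 1450534_x_at, lay between 5.40 and 6.62 on all arrays and the lines overlapped in each culture.

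H2-D1 encodes the D heavy chain and has the most probe sets, 11, of which 9 name it alone. Probe set 1425545_x_at had 10.06 and 11.00 on the 9A1 day 5 arrays, against 8.59 and 8.60 on 14B3, a difference of 1.94. In basal culture it had 7.97 on the array labelled 9A1 replicate 1 and 9.64 on replicate 2, against 7.33 and 7.56 on 14B3. The difference in basal culture was 1.36 with both arrays and 2.19 without the first. At day 1 it was 1.35 with both and 2.19 without the array labelled replicate 2, so the line difference of this probe set was of like size in all 3 cultures once the 2 arrays were out.

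Probe set 1450170_x_at, also annotated to H2-D1 alone, ran the other way. It had 10.90 and 11.68 on the 9A1 day 5 arrays, against 12.13 and 12.10 on 14B3, a difference of -0.82. In basal culture the array labelled 9A1 replicate 1 had 11.59 and replicate 2 had 8.51, against 9.73 and 10.38 on 14B3. The 2 arrays labelled 9A1 thus lay on either side of 14B3 and the mean difference was -0.01, against -1.54 without the first of them. At day 1 the difference was -0.53 with both arrays and -1.07 with replicate 1 alone. The probe set 1424948_x_at, which names H2-K1 and H2-D1, did likewise before day 5. Its differences with and without the odd array were -0.54 and -1.35 in basal culture, and -0.41 and -1.29 at day 1. With all arrays the lines overlapped in every culture on this probe set, and its day 5 difference was -0.01. Whether such opposite differences come from alleles, from other class I genes that share probes, or from the amount of RNA was not tested.

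**Figure D2:**
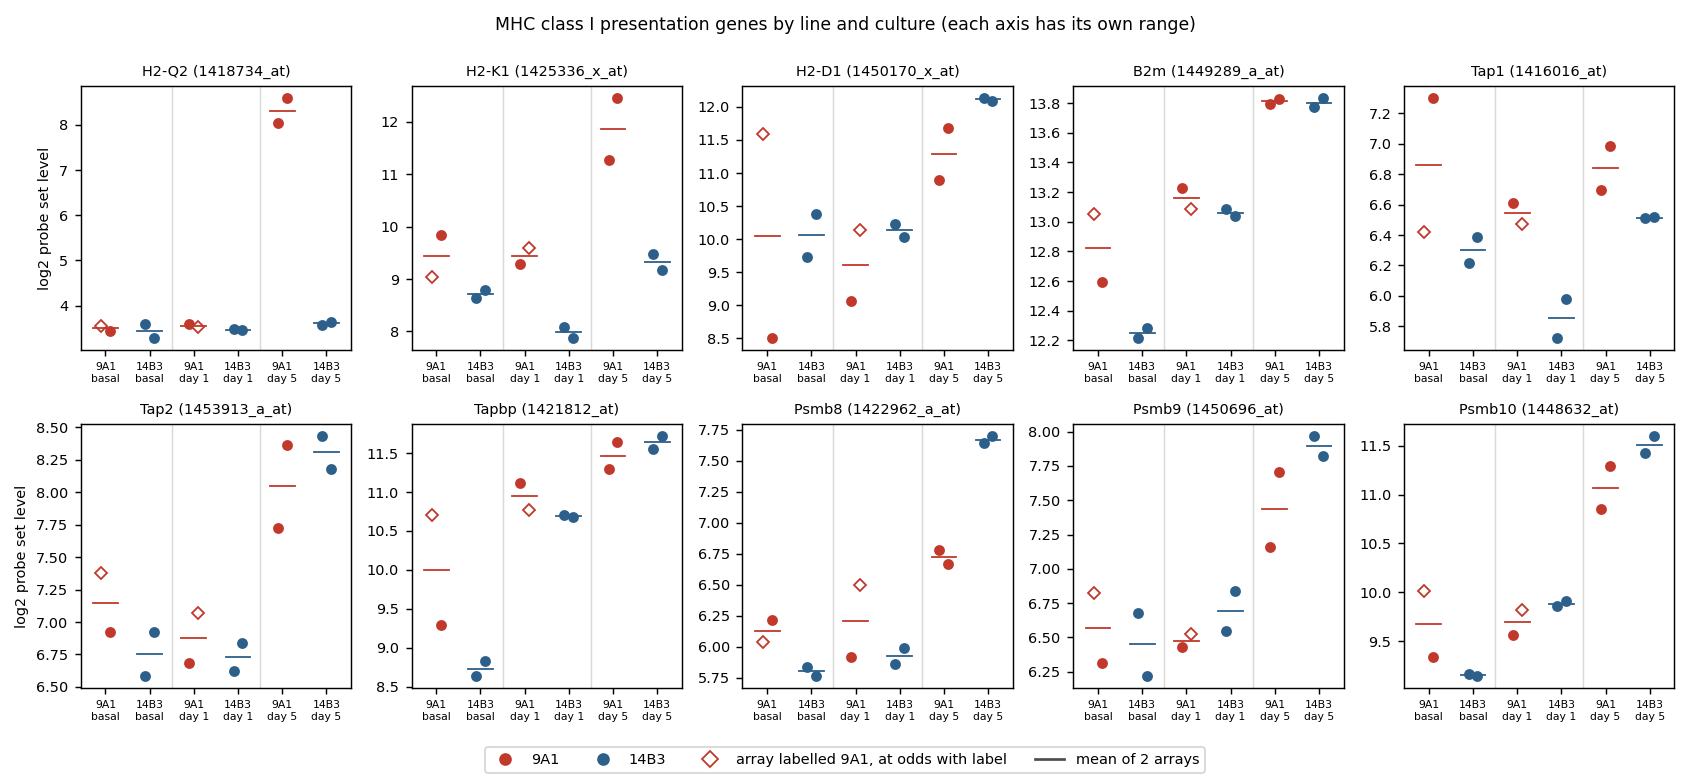
Log2 level of 1 probe set for each of the 10 genes on the 12 arrays, by line and culture, with bars at the mean of 2 arrays and open diamonds for the arrays at odds with their label (each panel has its own axis range). H2-Q2 is above 8 in 9A1 at day 5 and below 4 elsewhere, whereas Tapbp, Psmb10 and B2m are higher at day 5 than in basal culture in both lines.

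The remaining H2-D1 probe sets were split in the same manner. 1451683_x_at was higher in 9A1 at day 5 by 1.90, with 7.59 and 8.70 against 6.34 and 6.16 in 14B3, and 1451784_x_at by 1.06, with 8.40 and 9.28 against 7.61 and 7.95. Both were also above 14B3 on every array labelled 9A1 in basal culture and at day 1. 1426324_at, which has no x suffix, had 7.06 and 7.27 in 9A1 against 7.04 and 7.03 in 14B3 at day 5, a difference of 0.13 that leaves the lines barely apart. 1425614_x_at was lower in 9A1 at day 5 by a difference of -0.27, with 5.62 and 5.66 against 5.69 and 6.12 in 14B3, and for 1427651_x_at and 1452544_x_at the lines overlapped. Among the 16 heavy chain probe sets that passed the floor, 9A1 lay above 14B3 without overlap for 7 and below for 2 at day 5, as it did for 18.8% and 23.1% of all tested probe sets. The 7 include H2-Q2 1418734_at, which passed the floor through the 9A1 day 5 arrays alone.

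B2m, the light chain shared by all class I molecules, differed little between the lines. Probe set 1449289_a_at had 13.80 and 13.83 on the 9A1 day 5 arrays, against 13.77 and 13.83 on 14B3, and probe set 1452428_a_at had 13.31 and 13.46 against 13.38 and 13.46. The lines overlap at day 5 on both. In basal culture 1449289_a_at had 13.05 on the array labelled 9A1 replicate 1 and 12.60 on replicate 2, against 12.22 and 12.28 on 14B3, so 9A1 lay above with a difference of 0.57, or 0.35 without the first array.

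Among the genes that supply peptides, Psmb8 and Psmb10 were higher in 9A1 in basal culture and lower in 9A1 at day 5. The immunoproteasome subunit Psmb8 had 6.78 and 6.67 on the 9A1 day 5 arrays, against 7.64 and 7.70 on 14B3, a difference of -0.95. In basal culture it had 6.04 and 6.22 on the arrays labelled 9A1, against 5.84 and 5.77 on 14B3. The 2 lines do not overlap in either culture, and 9A1 is above in basal culture and below at day 5. Psmb9 had 7.16 and 7.71 in 9A1 at day 5, against 7.97 and 7.83 in 14B3, and Psmb10 had 10.85 and 11.30 against 11.43 and 11.60. Both are lower in 9A1 at day 5, by differences of -0.46 and -0.44.

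Tap1 encodes 1 subunit of the peptide transporter and was the exception at day 5. Its probe set 1416016_at had 6.70 and 6.99 on the 9A1 day 5 arrays, against 6.51 and 6.52 on 14B3, a difference of 0.33. In basal culture it had 6.42 on the array labelled 9A1 replicate 1 and 7.30 on replicate 2, against 6.21 and 6.39 on 14B3, and the difference of 0.56 became 1.00 without the first array. Tap2, the other subunit, had 7.72 and 8.37 in 9A1 at day 5, against 8.43 and 8.18 in 14B3, and the lines overlap. Tapbp 1421812_at had 11.29 and 11.64 in 9A1 at day 5 against 11.55 and 11.72 in 14B3, which also overlap. In basal culture it had 10.71 on the array labelled 9A1 replicate 1 and 9.30 on replicate 2, against 8.65 and 8.83 on 14B3, a difference of 1.27 that was 0.56 without the first array.

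Counted over the 26 probe sets with all arrays, 9A1 lay above 14B3 without overlap for 13 in basal culture and below for 1, where 13.8% and 25.3% of all 34866 tested probe sets did so. At day 1 it was 13 above and 2 below (9.73% and 15.9% of all), and at day 5 it was 8 above and 5 below (18.8% and 23.1% of all). Without the 2 arrays a single 9A1 array faces 2 of 14B3, and the basal count was 14 above and 7 below (33.2% and 41.7% of all) and the day 1 count 13 above and 8 below (33.3% and 38.3% of all). The genes were picked with these contrasts known, so nothing is read from the shares. The median line difference over the 30 probe sets was 0.16 in basal culture, 0.13 at day 1 and 0.045 at day 5. It was 0.0717 in basal culture without the array labelled 9A1 replicate 1, 0.00041 at day 1 without the array labelled 9A1 replicate 2, and -0.145 at day 5 without 9A1 replicate 2, so its sign at day 5 rests on 1 array.

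**Figure D3:**
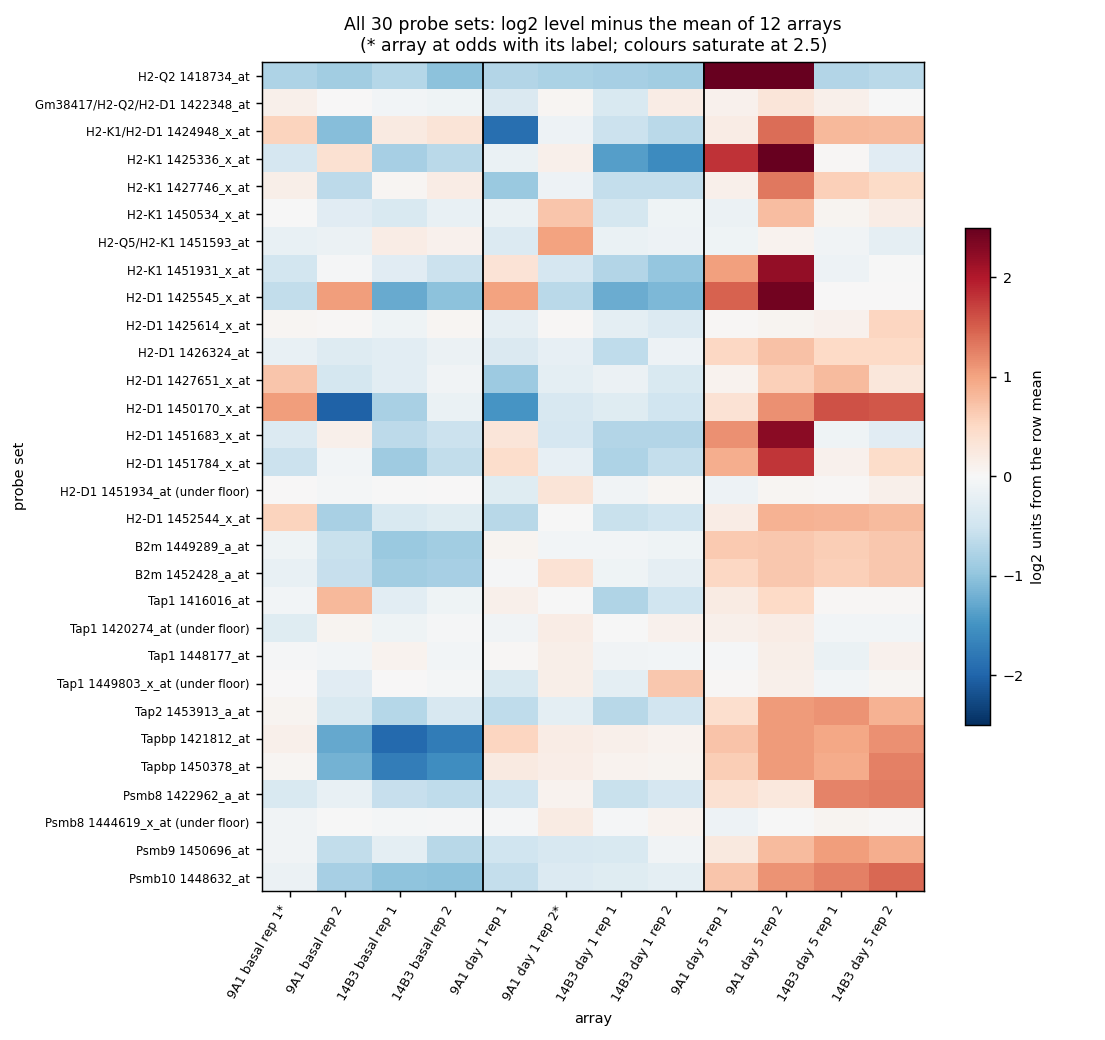
Each of the 30 probe sets (rows) on the 12 arrays (columns, with an asterisk for the 2 arrays at odds with their label), coloured by log2 level minus the mean of the 12 arrays, with colours saturated at 2.5. The day 5 columns of both lines are red for B2m, Tap2, Tapbp, Psmb9 and Psmb10, while H2-Q2 is red in 9A1 alone and H2-D1 1450170_x_at is highest in 14B3.

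Over 5 days in aggregates B2m, Tapbp and Psmb10 rose in both lines, while Tap1 did not pass the test in either. These time-course tests used limma on all tested probe sets, with Benjamini-Hochberg adjusted p under 0.05 as the threshold. In 14B3, none of whose arrays is at odds with its label, 9 of the 26 probe sets were higher at day 5 than in basal culture and none was lower, where 9.65% of all probe sets were higher and 11% lower, and 12 of the 26 had an unadjusted p under 0.05, as did 31.5% of all. These 9 covered B2m, H2-D1, Tap2, Tapbp, Psmb8, Psmb9 and Psmb10. In the fit on 10 arrays, 14 were higher and none lower (18.1% and 19.7% of all). The median change over the 26 was 0.704, against -0.0205 over all tested probe sets.

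Tapbp changed most in 14B3. Probe set 1421812_at had 11.55 and 11.72 at day 5, against 8.65 and 8.83 in basal culture, a rise of 2.90 ± 0.38 (limma SE, adjusted p = 0.0017) or 7.46-fold. The second probe set, 1450378_at, rose by 2.73 ± 0.36 (limma adjusted p = 0.0017). The aggregates of day 5 stand wholly above basal culture on both. In 9A1 1421812_at had 11.29 and 11.64 at day 5, against 10.71 on the array labelled basal replicate 1 and 9.30 on replicate 2, a rise of 1.46 ± 0.38 (limma adjusted p = 0.038). Without the 2 arrays it was 2.17 ± 0.17 (limma adjusted p = 2.3e-05). With any 1 array left out the value lay between 0.76 and 2.17 and missed the threshold in 9 of 12 cases.

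The 3 immunoproteasome genes rose in 14B3. Psmb10 had 11.43 and 11.60 at day 5, against 9.16 and 9.15 in basal culture, a rise of 2.36 ± 0.25 (limma adjusted p = 0.00085). Psmb8 had 7.64 and 7.70 at day 5, against 5.84 and 5.77 in basal culture, a rise of 1.87 ± 0.21 (limma adjusted p = 0.001). Psmb9 had 7.97 and 7.83 at day 5, against 6.68 and 6.22 in basal culture, a rise of 1.45 ± 0.27 (limma adjusted p = 0.0059). No array of day 5 reached down to a basal one in any of the 3. The Psmb9 call was lost when 14B3 basal replicate 2 or 14B3 day 5 replicate 1 was left out.

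In 9A1 Psmb10 passed the test with 12 arrays and the other subunits did not. Psmb10 had 10.85 and 11.30 at day 5, against 10.01 and 9.34 on the arrays labelled basal, a rise of 1.40 ± 0.25 (limma adjusted p = 0.0077). With 10 arrays it was 1.73 ± 0.18 (limma adjusted p = 0.00012), and the call was lost without 9A1 day 5 replicate 2 (limma adjusted p = 0.08). Psmb9 had a difference of 0.86 ± 0.27 that missed the threshold (limma adjusted p = 0.07), and 1.12 ± 0.28 without the 2 arrays (limma adjusted p = 0.013). Psmb8 had 0.60 ± 0.21 (limma adjusted p = 0.1), and 0.51 ± 0.17 without the 2 arrays (limma adjusted p = 0.047). The day 5 arrays were above the basal ones for all 3 genes.

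Of the transporter subunits, Tap2 rose in 14B3 and Tap1 did not pass the test. In 14B3 Tap2 had 8.43 and 8.18 at day 5, against 6.59 and 6.92 in basal culture, a rise of 1.55 ± 0.28 (limma adjusted p = 0.0054), and the call was lost without 14B3 basal replicate 1 or 14B3 day 5 replicate 1. Tap1 1416016_at had 6.51 and 6.52 at day 5, against 6.21 and 6.39 in basal culture, a difference of 0.21 ± 0.27 (limma adjusted p = 0.72). In 9A1 Tap2 had a difference of 0.89 ± 0.28 (limma adjusted p = 0.073), or 1.12 ± 0.28 without the 2 arrays (limma adjusted p = 0.013). Tap1 had -0.02 ± 0.27 (limma adjusted p = 0.99), or -0.46 ± 0.20 without them (limma adjusted p = 0.12). The difference between Tap1 and Tap2 was not tested.

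B2m rose in both lines. In 14B3 probe set 1449289_a_at had 13.77 and 13.83 at day 5, against 12.22 and 12.28 in basal culture, a rise of 1.55 ± 0.14 (limma adjusted p = 0.00066) or 2.93-fold, and 1452428_a_at rose by 1.49 ± 0.16 (limma adjusted p = 0.00094). In 9A1 the first had 13.80 and 13.83 at day 5, against 13.05 and 12.60 on the arrays labelled basal, a rise of 0.99 ± 0.14 (limma adjusted p = 0.0027). Without the 2 arrays the rise in 9A1 was 1.22 ± 0.08 (limma adjusted p = 8.4e-06). The day 5 arrays lie above the basal ones in both lines, and the 4 day 5 arrays hold between 13.77 and 13.83 on 1449289_a_at.

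For the heavy chains the outcome depended on the probe set and the line. In 9A1, H2-K1 1425336_x_at rose by 2.41 ± 0.38 (limma adjusted p = 0.0048), 1451931_x_at by 1.85 ± 0.38 (limma adjusted p = 0.016), and H2-D1 1451683_x_at by 1.80 ± 0.36 (limma adjusted p = 0.013). With 10 arrays they rose by 2.01 ± 0.39, 1.65 ± 0.39 and 1.57 ± 0.37 (limma adjusted p = 0.0034, 0.0098 and 0.0093). The calls of 1451931_x_at and 1451683_x_at were lost without 9A1 day 5 replicate 2 (limma adjusted p = 0.11 and 0.092). In 14B3 the same 3 differed by 0.61, 0.34 and 0.39, and none passed (limma adjusted p = 0.35, 0.68 and 0.57). Other H2-D1 probe sets differed more in 14B3 without passing with 12 arrays. The mean of 1425545_x_at went from 7.45 in basal culture to 8.60 at day 5. For 1452544_x_at it went from 7.71 to 8.88, and for 1451784_x_at from 6.75 to 7.78. In 9A1 1451784_x_at passed at 1.64, a call lost without 9A1 day 5 replicate 2. Over the 16 heavy chain probe sets the 14B3 changes ran from -0.30 to 2.05, with a median of 0.47. H2-D1 1426324_at, the one probe set for H2-D1 alone that passed the floor with no x suffix, rose in both, by 0.87 ± 0.20 in 9A1 (limma adjusted p = 0.024) and 0.70 ± 0.20 in 14B3 (limma adjusted p = 0.038), and in 9A1 by 0.94 ± 0.23 without the 2 arrays (limma adjusted p = 0.012). Its call was lost when single arrays were left out, in 7 of 12 cases in 9A1 and 6 of 12 in 14B3.

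H2-D1 1450170_x_at was called with 10 arrays and not with 12. In 14B3 it had 12.13 and 12.10 at day 5, against 9.73 and 10.38 in basal culture, and the difference of 2.05 ± 0.81 missed the threshold with 12 arrays (limma adjusted p = 0.11) but passed with 10, at 2.05 ± 0.27 (limma adjusted p = 0.00029). In 9A1 it had 10.90 and 11.68 at day 5, against 11.59 on the array labelled basal replicate 1 and 8.51 on replicate 2. The difference was 1.24 ± 0.81 with all arrays (limma adjusted p = 0.42) and 2.78 ± 0.32 without the 2 arrays (limma adjusted p = 0.00021). The basal arrays of 14B3 lie wholly below those of day 5, and those labelled 9A1 lie on either side.

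Across 9A1, 11 of the 26 probe sets were higher at day 5 than in basal culture and none lower, where 4.7% of all were higher and 6.57% lower. H2-Q2 is among the 11, and it had to differ, since it passed the floor through these arrays alone. It had 8.05 and 8.59 at day 5, against 3.55 on the array labelled basal replicate 1 and 3.44 on replicate 2, a difference of 4.83. With 10 arrays the count was 18 higher and none lower (15.4% and 19.4% of all). The count was 3 without 9A1 day 5 replicate 2 and 15 without the array labelled 9A1 basal replicate 1. When limma was fitted to the 2 compared groups of 9A1 alone, none of the 11 calls remained, those of B2m, Tapbp and Psmb10 included, and 14 of the 26 had an unadjusted p under 0.05. The share of all probe sets with such a p in that fit is not given, so nothing is read from the 14.

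**Figure D4:**
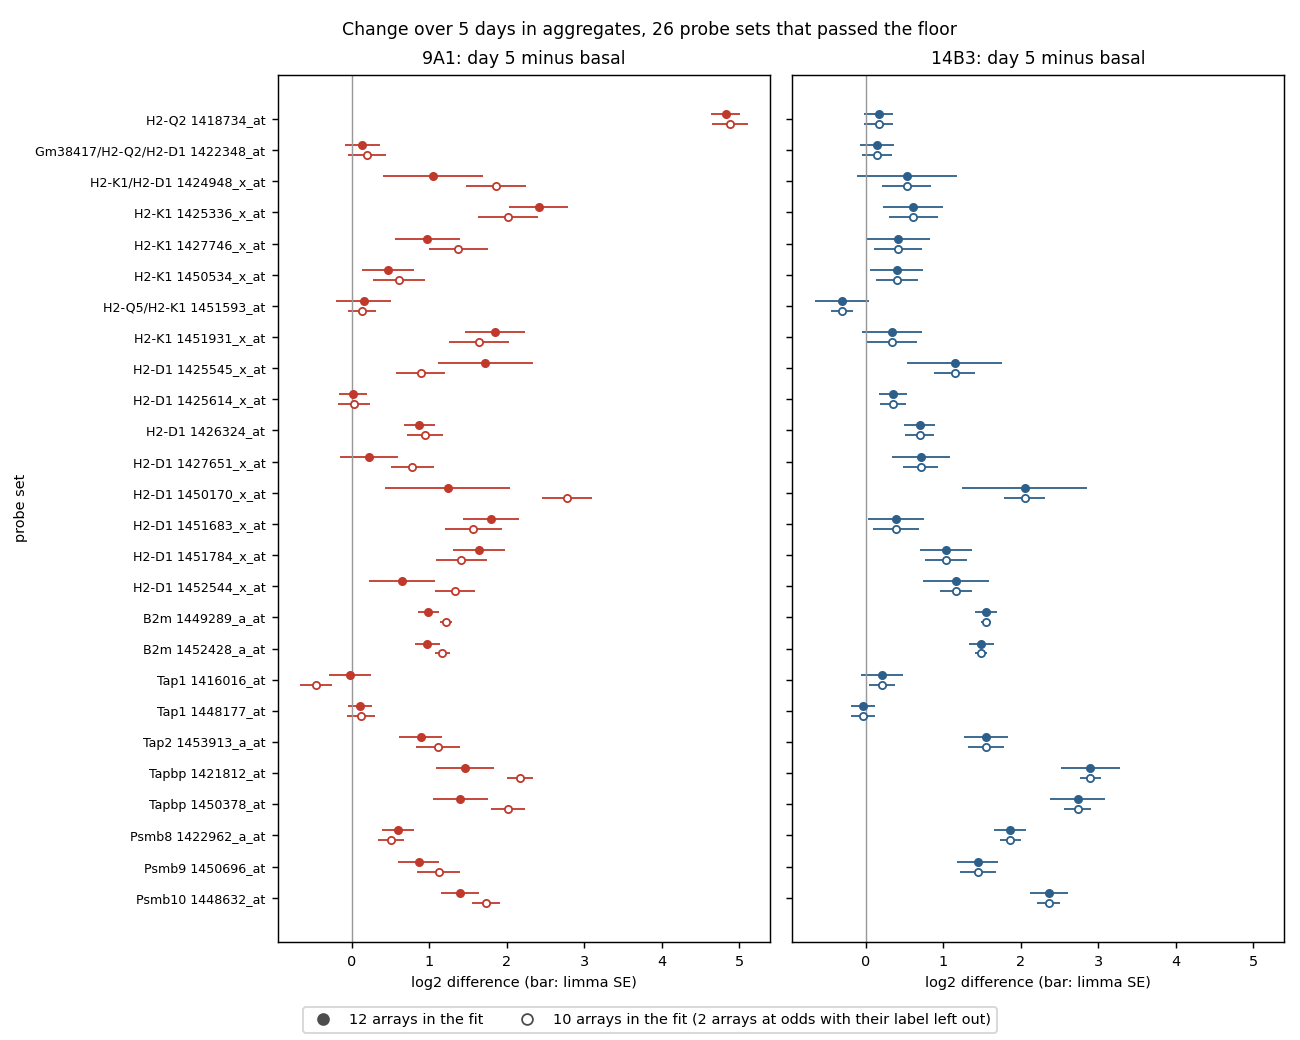
Log2 difference of day 5 minus basal culture for the 26 probe sets above the floor, in 9A1 (left) and 14B3 (right), with bars of 1 limma SE, filled points for the fit on 12 arrays and open points for the fit on 10. Among the filled points, H2-Q2 and H2-K1 1425336_x_at lie farthest right in 9A1, at 4.83 and 2.41, and Tapbp and Psmb10 in 14B3, at 2.90 and 2.36.

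After 1 day, Tapbp and B2m were the members that had changed. In 14B3 Tapbp 1421812_at had 10.71 and 10.68 at day 1, against 8.65 and 8.83 in basal culture, a rise of 1.96 ± 0.38 (limma adjusted p = 0.021). B2m 1449289_a_at had 13.08 and 13.04 at day 1, against 12.22 and 12.28 in basal culture, a rise of 0.81 ± 0.14 (limma adjusted p = 0.013). Both stand clear of basal culture. With the second probe set of each, these were 4 of the 26, against 2.35% of all probe sets called higher and 3.76% lower, and no member was lower. All 4 calls were lost when any of the 4 arrays compared was left out.

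Leaving out either 14B3 day 5 array left 2 of the 4. In 9A1 no member passed at day 1, where limma called 0.172% of all probe sets higher and 0.886% lower, and 3 of the 26 had an unadjusted p under 0.05, as did 13.7% of all. The count was 4 without the array labelled 9A1 basal replicate 1 and 2 without 9A1 day 1 replicate 1. Without the 2 odd arrays 4 were higher and none lower (5.98% and 5.34% of all), and they were again the Tapbp and B2m probe sets, with Tapbp 1421812_at at 1.81 ± 0.19 (limma adjusted p = 0.0013). The immunoproteasome genes did not pass at day 1 with 12 arrays. Psmb8 had 5.86 and 5.99 on the 14B3 day 1 arrays, against 5.84 and 5.77 in basal culture, a difference of 0.12 ± 0.21 (limma adjusted p = 0.87). Psmb10 differed by 0.73 ± 0.25 in 14B3 (limma adjusted p = 0.12), and passed with 10 arrays at 0.73 ± 0.15 (limma adjusted p = 0.0067). Averaged over the lines, 4 members were higher at day 1 and none lower (4.19% and 7.34% of all), and with 10 arrays 5 were higher and 2 lower (15.7% and 13.9% of all). With 12 arrays the count was 1 without 14B3 basal replicate 1. The 2 lower ones with 10 arrays were Tap1 1416016_at at -0.57 ± 0.14 (limma adjusted p = 0.016) and the H2-K1 or H2-D1 probe set 1424948_x_at at -0.85 ± 0.27 (limma adjusted p = 0.045).

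Between day 1 and day 5 the 3 immunoproteasome genes and Tap2 rose in 14B3, as did B2m (by 0.74 and 0.81) and H2-D1 1426324_at (by 0.88). With 12 arrays Psmb10, Tap2 and B2m 1449289_a_at (by 0.65) rose in 9A1. So did H2-K1 1425336_x_at and 1451931_x_at (by 2.42 and 1.64) and H2-D1 1426324_at and 1451683_x_at (by 0.92 and 1.75). H2-Q2 was called in 9A1 as well, a call fixed by the floor. In 9A1 Psmb10 rose by 1.38 ± 0.25 (limma adjusted p = 0.013) and Tap2 by 1.17 ± 0.28 (limma adjusted p = 0.038), while Psmb8 and Psmb9 missed the threshold at 0.52 ± 0.21 and 0.96 ± 0.27 (limma adjusted p = 0.18 and 0.062). With 10 arrays these 2 passed, at 0.81 ± 0.17 and 1.01 ± 0.28 (limma adjusted p = 0.0083 and 0.028). In 14B3, Psmb8 had 7.64 and 7.70 at day 5, against 5.86 and 5.99 at day 1, a rise of 1.75 ± 0.21 (limma adjusted p = 0.0053). Psmb10 rose by 1.63 ± 0.25 (limma adjusted p = 0.01), Tap2 by 1.58 ± 0.28 (limma adjusted p = 0.016) and Psmb9 by 1.20 ± 0.27 (limma adjusted p = 0.035). Tapbp 1421812_at, which had risen by day 1, differed by a further 0.94 ± 0.38 that missed the threshold (limma adjusted p = 0.2) and passed with 10 arrays at 0.94 ± 0.14 (limma adjusted p = 0.0014). The count was 7 of the 26 higher and none lower in 14B3 (2.88% and 2.48% of all), and 8 higher and none lower in 9A1 (4.71% and 2.85% of all), the fixed call of H2-Q2 among the 8. With 10 arrays these counts were 19 and 16 (12.6% and 10.5% of all). Leaving out any of the 4 arrays of 14B3 compared took its count to 0, and leaving out either array labelled 9A1 basal took it to 12. The count in 9A1 was 1 without 9A1 day 5 replicate 2 and 4 or 5 without any single 14B3 array.

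Averaged over the lines, where a change in either line alone can carry the mean, 16 of the 26 were higher at day 5 than in basal culture and none lower (13.7% and 15.4% of all). With 10 arrays 20 were higher and none lower (21% and 24% of all). They cover 8 genes beside H2-Q2, whose call was fixed by the floor, and not Tap1, both with 12 arrays and with 10. Between day 5 and day 1 the count was 17 higher and none lower (9.91% and 8.22% of all), the fixed call of H2-Q2 included. It was 10 when any of the 4 arrays of 14B3 compared was left out. With 10 arrays it was 22 higher and none lower (15.7% and 22.4% of all). Comparisons with basal culture and with day 1 share the day 5 arrays, so their counts are not independent.

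Whether the lines responded unlike each other was asked with the interaction, 9A1 change minus 14B3 change. At day 5 against basal culture 1 of the 26 passed, H2-Q2, whose 2 values per group are given above and which was chosen for this pattern. Over all probe sets 0.0229% passed as higher and 0% as lower, and 10 members had an unadjusted p under 0.05, as did 2.96% of all. The interaction is the line difference at day 5 minus that in basal culture, and the genes were chosen with the line differences known. Nothing is therefore read from the 10 or from the p-values of members below. The change in Psmb8 was smaller in 9A1 by a difference of -1.27 ± 0.29, which missed the threshold (limma adjusted p = 0.57). Without the 2 arrays it was -1.36 ± 0.22 and passed (limma adjusted p = 0.041), where 0.31% of all were higher and 0.204% lower. For H2-K1 1425336_x_at the interaction was 1.80 ± 0.54 (limma adjusted p = 1), and 1.40 ± 0.50 with 10 arrays (limma adjusted p = 0.43). The 8 peptide supply probe sets above the floor had interactions between -1.44 and 0.14. At day 1 against basal culture no member passed with 12 or with 10 arrays, and 1 and 0 had an unadjusted p under 0.05, as did 3.1% and 5.36% of all. Over all probe sets 0% passed either way with 12 arrays, and 0.00287% as higher and 0.0229% as lower with 10. Without 9A1 basal replicate 2, which leaves the array at odds with its label to stand for 9A1 in basal culture, the counts were 3 at day 1 and 4 at day 5, and without 9A1 day 1 replicate 1 the count at day 1 was 1. A p that misses the threshold does not show that the lines responded alike.

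Other genes of the pathway were described from lists, with the highest single-gene probe set standing for a gene. Among 15 tested genes of assembly and peptide trimming, 4 were higher and 1 lower in 14B3 at day 5 against basal culture (9.65% and 11% of all probe sets). Erap1, the aminopeptidase that trims peptides in the endoplasmic reticulum, had 9.03 and 9.08 at day 5, against 7.25 and 7.53 in basal culture, a rise of 1.67 ± 0.21 (limma adjusted p = 0.0016). Tapbpl, a tapasin relative, rose by 1.09 ± 0.25 (limma adjusted p = 0.014), and Calr, the chaperone calreticulin, by 0.85 ± 0.15 (limma adjusted p = 0.0046). The median difference of the 15 was -0.136. With 10 arrays 5 were higher and 5 lower (18.1% and 19.7% of all). In 9A1 with 12 arrays 3 were higher and 1 lower (4.7% and 6.57% of all), Erap1 among the higher at 1.11 ± 0.21 (limma adjusted p = 0.011).

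Other proteasome genes were counted likewise in 14B3 at day 5, where 9.65% of all probe sets were higher than in basal culture and 11% lower. Psme1, a subunit of the PA28 activator, had 12.30 and 12.32 on the 14B3 day 5 arrays, against 11.27 and 11.30 in basal culture, a rise of 1.03 ± 0.14 (limma adjusted p = 0.0022), and it was the one of the 2 tested PA28 genes that passed. Of the 7 constitutive beta subunits of the proteasome, none was higher and 1 lower, Psmb7, which Psmb10 replaces, at -0.46 ± 0.11 (limma adjusted p = 0.016). With 10 arrays 5 of the 7 were lower (19.7% of all). Their median difference was -0.3, against 1.45 to 2.36 for the 3 immunoproteasome genes. Of 9 tested class I heavy chains outside the members, 1 was higher and 1 lower (9.65% and 11% of all probe sets). Fcgrt, the neonatal Fc receptor, rose by 1.91 ± 0.53 (limma adjusted p = 0.031), and H2-Q5 differed by -0.75 ± 0.18 (limma adjusted p = 0.017).

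Among 20 tested regulators of class I genes 8 were higher and none lower in 14B3 (9.65% and 11% of all probe sets). Irf1, a transcription factor that binds interferon response elements, had 10.38 and 10.50 at day 5, against 8.64 and 8.72 in basal culture, a rise of 1.76 ± 0.22 (limma adjusted p = 0.0014). Irf2, a factor that binds the same elements, rose by 1.82 ± 0.39 (limma adjusted p = 0.011), and Ifngr2, a chain of the interferon gamma receptor, by 1.66 ± 0.38 (limma adjusted p = 0.014). In 9A1 3 of the 20 were higher and none lower (4.7% and 6.57% of all), and Irf1 had a difference of 0.58 ± 0.22 (limma adjusted p = 0.12), or 0.87 ± 0.15 without the 2 arrays (limma adjusted p = 0.0022). The median difference of the 20 was 0.26 in 14B3 and 0.137 in 9A1. With 10 arrays 8 were higher and 3 lower in 9A1 (15.4% and 19.4% of all), and 8 higher and 4 lower in 14B3 (18.1% and 19.7% of all). Nlrc5, the class I transactivator, was below the floor on all 12 arrays.

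Markers of other cells were read beside these changes. Of the epithelial keratins, Krt8 lay between 14.0 and 14.2 and Krt19 between 13.6 and 14.0 on all 12 arrays, near the top of the scale, where a change can be compressed. Krt18 was lower at day 5 than in basal culture, by a difference of -0.99 ± 0.17 in 9A1 (limma adjusted p = 0.0077) and -1.17 ± 0.17 in 14B3 (limma adjusted p = 0.0026). The keratins were chosen after their values were seen. Of 13 leukocyte marker genes on the array 10 were tested, and Ptprc and Coro1a were below 5 on all arrays. At day 5 against basal culture 1 was higher and none lower in 14B3 (9.65% and 11% of all probe sets). In 9A1 1 was higher and 1 lower (4.7% and 6.57% of all). The higher one was Csf1r, a growth factor receptor of macrophages. It had 11.99 and 12.02 on the 9A1 day 5 arrays, 9.53 and 9.84 on the 14B3 day 5 arrays and 7.65 to 9.17 in basal culture. Cd68, of the same list, ran the other way. It had 6.07 and 6.37 on the 9A1 day 5 arrays, 5.85 and 6.39 on the 14B3 day 5 arrays and 6.95 to 8.13 in basal culture. The summed level of the 13 leukocyte genes was 77.4 to 79.2 in 9A1 at day 5 and 75.0 to 75.4 in 14B3 at day 5, against 74.5 to 75.3 in 9A1 and 73.7 to 74.9 in 14B3 in basal culture. The part of such cells in the class I levels was not tested.

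None of 7 tested MHC class II genes, 7 tested endothelial genes and 7 tested fibroblast and stellate genes passed in either line at day 5 with 12 arrays. With 10 arrays 1 class II gene was higher in 9A1, H2-DMa. Cd74, the chaperone of class II, lay between 5.88 and 6.40. The endothelial gene Tek and the fibroblast and stellate genes Col3a1, Lrat and Lum were below 5 on all arrays. Summed over the 8 class II genes on the array, levels were 44.4 to 45.8 in 9A1 and 44.4 to 45.1 in 14B3 at day 5, against 43.5 to 43.8 in 9A1 and 44.1 to 45.2 in 14B3 in basal culture.

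Albumin, the main plasma protein made by hepatocytes, was also higher in 14B3 aggregates. Alb had 13.63 and 12.01 on the 14B3 day 5 arrays, against 6.20 and 5.57 in basal culture, a rise of 6.93 ± 1.72 (limma adjusted p = 0.021), and Epcam, an epithelial adhesion gene, rose by 5.84 ± 1.36 (limma adjusted p = 0.016). In 9A1 Alb had 14.21 and 11.88 at day 5, against 13.14 and 6.86 on the arrays labelled basal, and was not called with 12 arrays. Krt18, given above, and Foxa2 were lower at day 5, Foxa2 with 8.11 to 9.54 against 10.31 to 10.70 in basal culture. Of 11 tested fetal liver epithelial genes 3 were higher and 2 lower in 14B3 (9.65% and 11% of all probe sets). In 9A1 none was higher and 2 were lower (4.7% and 6.57% of all). With 10 arrays 5 were higher and 3 lower in 9A1. Their relation to the class I genes was not tested.

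Over the 12 arrays, the genes whose level followed the mean of the heavy chains and B2m most closely were Ush1c (Pearson r = 0.981), Tmem41b (0.980), Naaladl1 (0.979), Slc26a6 (0.978) and 2310016G11Rik (0.974). For the mean of the 6 peptide supply genes they were Dtx3l (0.980), Cyb5d2 (0.978), Tmem129 (0.978), Stim1 (0.976) and Slc2a9 (0.975). These correlations are descriptions: the 12 points share lines, cultures and the odd arrays. H2-Q2 entered the first mean through 1422348_at, its brighter probe set, which also names H2-D1 and Gm38417 and was nearly flat. The closest genes were picked as the highest of all tested genes, so high values are what the choice gives.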

How the data were processed

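Gene expression was measured on 12 Affymetrix whole-genome mouse arrays, 2 for each of 6 combinations of line and culture. The log2 values were deposited by the authors. The submitters' processing notes name RMA and R 2.3.1. RMA brings the probe intensities of all arrays to 1 distribution, so differences in total RNA are not seen. The deposited probe set levels still differ in spread between arrays, and the number of arrays limits the precision. No column of values was left unmapped (0). Probe sets were named from the platform annotation: 34945 had 1 gene, 932 several and 9160 none, and 64 controls were left out.

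Means of the 6 groups were fitted in 1 model with limma 3.58.1 in R 4.3.3, with a trend in the variance, to the 34866 probe sets at a log2 level of 5 or more on at least 2 arrays. P-values were adjusted over all of them by Benjamini-Hochberg at 0.05. In simulated data for day 5 against basal culture in 14B3, this step recovered 67% of 4-fold changes and 14% of 2-fold changes. It made 8 false calls among 34866 probe sets. The members and lists were chosen with earlier results of these data known, and the comparison of the lines therefore has no test. In the other lists the highest single-gene probe set stood for a gene, and the text names up to 3 called genes with the largest change in 14B3 at day 5 against basal culture, the odd-array and marker genes aside, which were chosen after their values were seen.

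The alternatives were no floor, a floor of 6, 1 probe set a gene, single-gene probe sets with no x suffix, median centring, quantile normalization, no variance trend, robust moderation, array weights, the compared groups alone, a replicate block, a threshold of 0.01, leaving out each array, and leaving out the 2 arrays at odds with their label. Same-numbered arrays did not deviate together (correlations between -0.3 and 0.515 over 15 pairs), so replicate numbers were not used as pairs.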

Additional observations from a re-analysis of the deposited data

Results flagged for a closer look

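The change of H2-Q2 (probe set 1418734_at) from basal culture to day 5 differed between the lines, with 9A1 minus 14B3 at 4.66 on the log2 scale by the interaction of line and culture. Its level was 8.05 and 8.59 in 9A1 at day 5, against 3.58 and 3.64 in 14B3 at day 5, and below 4 on the other 8 arrays. The gene was chosen with this pattern known and passed the floor through the 9A1 day 5 arrays alone, so the value is a description whose size rests on levels below the floor.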

How the results depend on the processing

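The counts below are of members called at adjusted p under 0.05. Leaving out the 2 arrays at odds with their label gave 4 for day 1 against basal culture in 9A1, 18 and 14 for day 5 against basal culture in 9A1 and 14B3, and 16 and 19 for day 5 against day 1. It gave 7 for day 1 in the mean of the lines, 2 for the interaction at day 5, and median line differences of 0.0717 in basal culture and 0.00041 at day 1. With 1 probe set a gene, which leaves 10 members, the counts were 2 for day 1 in 14B3, 5 and 5 for day 5 in 9A1 against basal culture and day 1, and 2, 8 and 7 in the mean of the lines, with a basal line difference of 0.459. Single-gene probe sets with no x suffix gave 7 and 5 for day 5 in 9A1, 10 and 9 in the mean of the lines, and a basal line difference of 0.360. Array weights gave 15 for day 5 against basal culture in 14B3, and 1 in 9A1 and 19 in 14B3 for day 5 against day 1. The compared groups alone gave 8 for day 1 in 14B3, of which 5 were higher and 3 lower, and 2 in the mean of the lines. They gave 0 and 19 for day 5 against basal culture in 9A1 and 14B3, and 1 and 21 against day 1. A threshold of 0.01 gave 0 for day 1 in 14B3, 5 for day 5 against basal culture in 9A1, 2 and 1 for day 5 against day 1 in 9A1 and 14B3, and 1 and 9 for day 1 against basal culture and day 5 against day 1 in the mean of the lines. The cause of these moves was not tested, apart from the fewer probe sets or arrays that some settings leave.

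With each array left out in turn the counts ranged from 0 to 4 in 9A1 and 0 to 5 in 14B3 for day 1 against basal culture, 3 to 15 and 6 to 12 for day 5 against basal culture, and 1 to 12 and 0 to 12 for day 5 against day 1. In the mean of the lines they ranged from 1 to 6, 13 to 18 and 10 to 21, and for the interaction from 0 to 3 at day 1 and 1 to 4 at day 5. The median line difference ranged from 0.0717 to 0.247 in basal culture, 0.00041 to 0.325 at day 1 and -0.145 to 0.150 at day 5. Of 924 values of single probe sets with 1 array left out, 722 kept direction and call, 202 lost the call and 0 reversed. Of 944 under the other settings, 853 kept both, 91 lost the call and 0 reversed.

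With the replicate number as a block the counts were 0 and 3 for day 1 in 9A1 and 14B3, 9 and 9 for day 5 against basal culture, and 7 and 6 for day 5 against day 1. The block moved no count by over 1.5 times, and the numbers were not treated as pairs in the main fit.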
